A study of Homo sapiens with 2 samples.

Results

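The chromatin repressors described here are 10 genes whose products write, copy or read the marks of silent chromatin: the Polycomb repressive complex 2 (PRC2) genes EZH2, SUZ12 and EED, the DNA methylation genes DNMT1, DNMT3A, DNMT3B, UHRF1 and HELLS, the histone methyltransferase gene SUV39H1 and the histone demethylase gene KDM1A. They were taken by gene symbol from a table of 57326 symbols, and each of the 10 symbols matched 1 row. All 10 averaged at least 1 TPM across the pair of libraries, the minimum for a ratio to be used, as did 13308 symbols in all, which are called the tested genes. RNA was sequenced from 22Rv1, an established castration-resistant human prostate cancer line. One library came from cells with the shRNA vector control (shCON) and 1 from cells with an shRNA targeting EIF3F (shEIF3F), the gene of a regulatory subunit of the translation initiation complex eIF3. With 1 library per group and 1 hairpin, no difference below has a replicate check, no p-value or error was computed, and effects of the hairpin other than EIF3F loss cannot be told apart from it.

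PRC2 methylates lysine 27 of histone H3 (H3K27): EZH2 is its catalytic subunit, SUZ12 its scaffold, and EED binds the finished mark and stimulates the enzyme. DNMT1 copies DNA methylation onto newly replicated strands at sites that UHRF1 recognises, HELLS is a nucleosome remodeller that opens chromatin for methylation, and DNMT3A and DNMT3B set methylation on unmethylated DNA. SUV39H1 methylates lysine 9 of histone H3 (H3K9) in constitutive heterochromatin, and KDM1A (LSD1) removes methyl groups from lysine 4 as part of the CoREST complex. In prostate cancer EZH2 is known for its high level in advanced disease.

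Values are TPM, in which each gene's reads are divided by transcript length and each library is brought to a common total, so the levels of different genes can be compared within a library. The targeted gene EIF3F was at 991 TPM in shCON against 17.0 TPM in shEIF3F, in the direction of the labels. Read depth cannot be recovered from TPM and is unknown. The log2 ratio was taken as log2 of (shEIF3F TPM + 1) over (shCON TPM + 1), which understates differences of genes near 1 TPM, and a gene at 1 or more, or -1 or less, is called at least 2-fold higher or lower. Over all tested genes the median was -0.36, and the 100 most abundant genes took 46.2% of TPM in shCON and 60.4% in shEIF3F. All 10 prostate epithelial markers were above the minimum, KRT8 at 301 and 347 TPM among them. Endothelial markers summed to 0.19 TPM in shCON against 0.05 TPM in shEIF3F (0 of 5 above the minimum). Leukocyte markers summed to 7.38 and 6.37 TPM (2 of 7, with MS4A1 listed at 0 in both), and fibroblast markers to 40.9 and 27.2 TPM (3 of 7, with THY1 listed at 0 in both). The part of those cell types in the results was not tested.

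UHRF1 and DNMT1 had the lowest log2 ratios of the 10, followed by HELLS and SUV39H1, and SUZ12 and EED differed least. Of the 10 repressors 7 were at least 2-fold lower (EZH2, DNMT1, DNMT3A, DNMT3B, UHRF1, HELLS and SUV39H1), where 25.5% of all tested genes passed the same fold. None was at least 2-fold higher, where 8.44% of all tested genes were. The median log2 ratio of the 10 was -1.35, against -0.36 for all tested genes. Their TPM summed to 166 in shCON and 45.5 in shEIF3F, 27.4% of the control level. In shCON the order by level ran from DNMT1 (64.1 TPM) through KDM1A, UHRF1, EZH2, HELLS, EED, DNMT3B, SUV39H1 and DNMT3A to SUZ12 (2.79 TPM). In shEIF3F it ran from KDM1A (21.7 TPM) through DNMT1, EZH2, EED, SUZ12, DNMT3B, DNMT3A, HELLS and UHRF1 to SUV39H1 (0.36 TPM). Without replicates, which neighbours in either order differ beyond their spread cannot be said. UHRF1 moved from the third to the ninth place and SUZ12 from the tenth to the fifth. UHRF1, HELLS and SUV39H1 were below 1 TPM in shEIF3F, so they passed the minimum through their level in shCON.

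**Figure D1:**
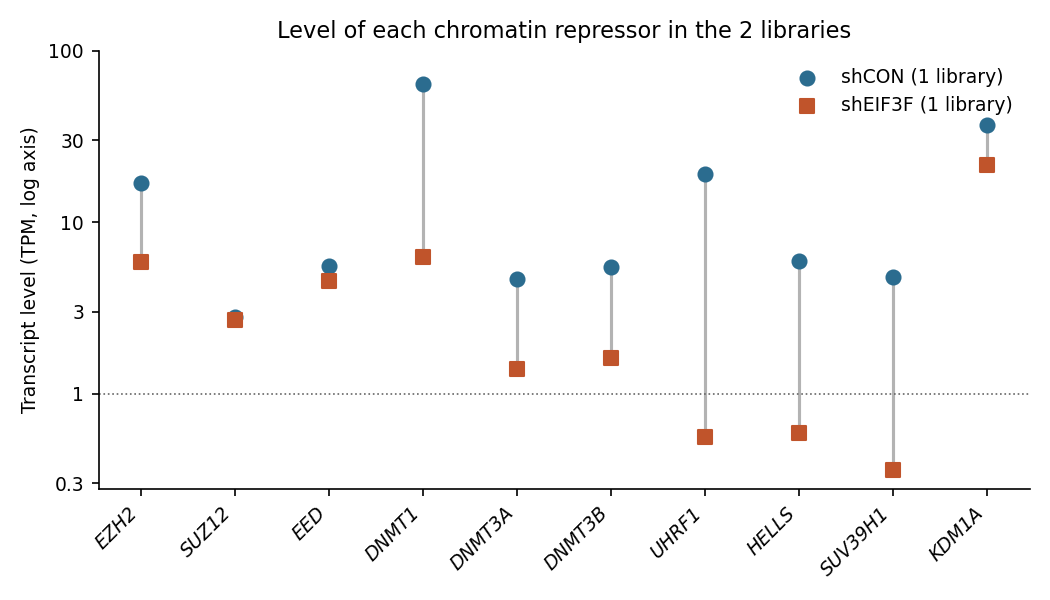
Transcript level of each of the 10 chromatin repressors in TPM on a log axis, with a circle for the shCON library and a square for the shEIF3F library. UHRF1, HELLS and SUV39H1 lie under the dotted line at 1 TPM in shEIF3F, whereas the symbols of SUZ12, at 2.79 and 2.67 TPM, overlap.

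Placed among the 13308 tested genes, 105 had a lower log2 ratio than UHRF1 (0.789% of genes) and 203 a lower one than DNMT1 (1.53%). HELLS had 5.57% of genes below it and SUV39H1 5.86%. EZH2, DNMT3B and DNMT3A lay between 15.4% and 18.7%, and KDM1A at 34.1%. EED (54.9%) and SUZ12 (63.5%) lay above the median gene.

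**Figure D2:**
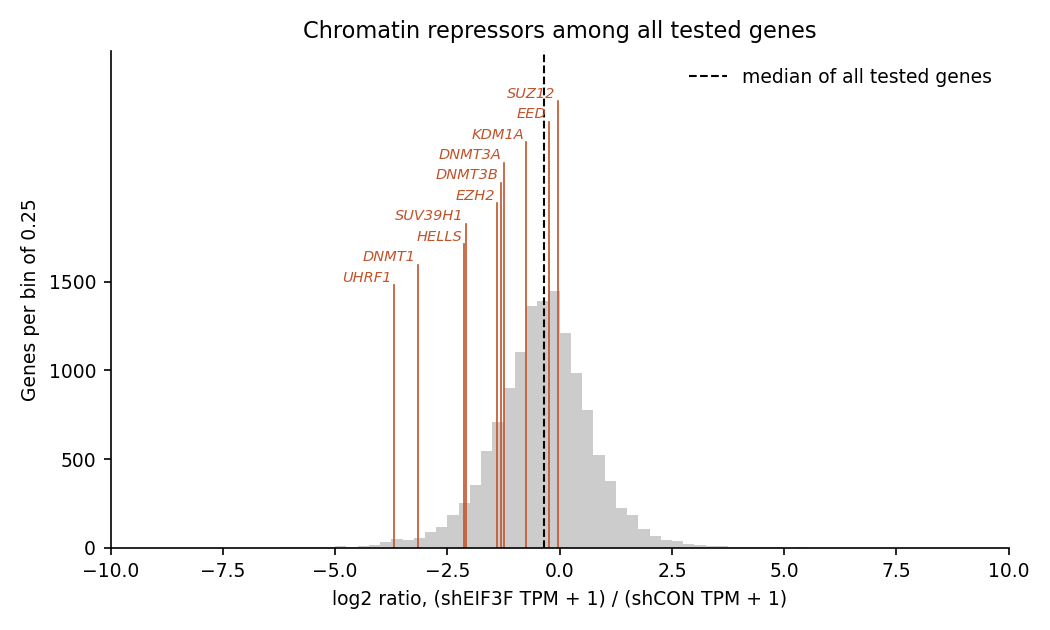
Number of tested genes per bin of log2 ratio (grey bars), with a line at the ratio of each chromatin repressor and a dashed line at the median of all tested genes, -0.36. UHRF1 and DNMT1 lie in the far lower tail, at -3.69 and -3.16, and EED and SUZ12 lie to the right of the median.

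Promoter sequences are shown because E2F transcription factors bind a short motif near the start of many replication genes, and 5 of the 10 repressors carry its letters. The windows are RefSeq's, on build GRCh38.p14, and span 250 bases before to 50 after an annotated start. All 10 genes matched, with 6 windows for DNMT3A, 3 for UHRF1, 2 each for EZH2 and SUV39H1, and 1 for each of the others. Capitals mark the E2F letters searched, TTTCCCGC, TTTGGCGC, TTTCGCGC or TTTGCCGC on either strand. The windows below are 4 of genes at least 2-fold lower in shEIF3F (UHRF1, DNMT1, HELLS and EZH2), that of SUZ12, which has the letters and was within 2-fold, and that of KDM1A, which has none.
UHRF1, chr19:4909251-4909550, plus strand: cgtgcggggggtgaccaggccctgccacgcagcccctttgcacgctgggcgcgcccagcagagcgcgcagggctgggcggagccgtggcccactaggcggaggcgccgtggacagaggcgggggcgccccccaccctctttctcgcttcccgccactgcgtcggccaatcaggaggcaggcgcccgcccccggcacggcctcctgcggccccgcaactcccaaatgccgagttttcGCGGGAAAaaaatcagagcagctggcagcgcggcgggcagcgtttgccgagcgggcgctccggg
DNMT1, chr19:10194904-10195203, minus strand: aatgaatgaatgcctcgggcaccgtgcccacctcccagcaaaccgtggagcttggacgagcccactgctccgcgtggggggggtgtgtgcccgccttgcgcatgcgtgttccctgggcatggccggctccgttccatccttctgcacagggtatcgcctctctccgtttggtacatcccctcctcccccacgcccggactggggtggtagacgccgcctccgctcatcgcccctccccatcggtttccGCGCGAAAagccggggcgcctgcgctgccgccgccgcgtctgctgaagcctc
HELLS, chr10:94545538-94545837, plus strand: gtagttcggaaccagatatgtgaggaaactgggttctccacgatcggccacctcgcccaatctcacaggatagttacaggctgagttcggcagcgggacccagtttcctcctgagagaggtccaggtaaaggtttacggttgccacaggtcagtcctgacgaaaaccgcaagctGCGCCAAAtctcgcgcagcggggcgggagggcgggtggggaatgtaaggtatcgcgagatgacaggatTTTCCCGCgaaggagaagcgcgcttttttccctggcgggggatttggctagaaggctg
EZH2, chr7:148884242-148884541, minus strand: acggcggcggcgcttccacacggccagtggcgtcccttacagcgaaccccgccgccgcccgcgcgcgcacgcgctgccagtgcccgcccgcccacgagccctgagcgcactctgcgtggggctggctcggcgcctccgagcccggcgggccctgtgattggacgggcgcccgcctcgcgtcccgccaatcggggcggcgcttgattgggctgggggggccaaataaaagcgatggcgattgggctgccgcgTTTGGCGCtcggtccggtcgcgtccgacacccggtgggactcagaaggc
SUZ12, chr17:31936757-31937056, plus strand: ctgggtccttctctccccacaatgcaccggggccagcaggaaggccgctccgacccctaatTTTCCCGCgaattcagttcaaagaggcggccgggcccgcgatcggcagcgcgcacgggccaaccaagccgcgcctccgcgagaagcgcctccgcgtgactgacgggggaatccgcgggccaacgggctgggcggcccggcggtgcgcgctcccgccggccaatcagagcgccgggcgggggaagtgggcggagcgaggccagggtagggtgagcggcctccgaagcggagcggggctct
KDM1A, chr1:23019218-23019517, plus strand: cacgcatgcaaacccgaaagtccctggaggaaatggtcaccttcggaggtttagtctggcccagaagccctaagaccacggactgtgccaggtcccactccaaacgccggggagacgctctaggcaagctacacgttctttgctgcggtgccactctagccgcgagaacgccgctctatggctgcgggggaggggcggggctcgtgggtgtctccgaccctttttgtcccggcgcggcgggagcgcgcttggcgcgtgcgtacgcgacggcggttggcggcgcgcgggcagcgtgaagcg

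The letters TTTCCCGC lay at -14 to -7 from the start of UHRF1 on the minus strand, at -8 to -1 of HELLS and at -189 to -182 of SUZ12, where 0 is the first base of the last 50. DNMT1 had TTTCGCGC at -2 to 5 on the minus strand and EZH2 had TTTGGCGC at 1 to 8. HELLS had a second match, TTTGGCGC at -76 to -69 on the minus strand, and another UHRF1 window had TTTCGCGC at -160 to -153. Such letters occur in 3.31% of the 35116 RefSeq windows, in 3.99% of their 27305 symbols and in 6.78% of the tested genes with a window. In shEIF3F 4 of the 5 repressors with them were at least 2-fold lower, and of those without them (EED, DNMT3A, DNMT3B, SUV39H1 and KDM1A) 3 of 5 were. Over all tested genes with a window the shares at least 2-fold lower were 33.8% with the letters and 24.8% without them. Of these 9310 genes, the 631 with the letters had a median log2 ratio of -0.60 and the 8679 without them -0.36. CCAAT, on either strand, was found in 7 of the 10 genes, against 39.7% of all symbols and 43.4% of tested genes, with 4 matches in the window of EZH2 shown. The CHR letters TTTGAA or TTCGAA, known from promoters of mitotic genes, were found in SUZ12 and DNMT3A, against 19.5% of all symbols and 14.3% of tested genes. A match is a description of the letters, not of binding.

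**Figure D3:**
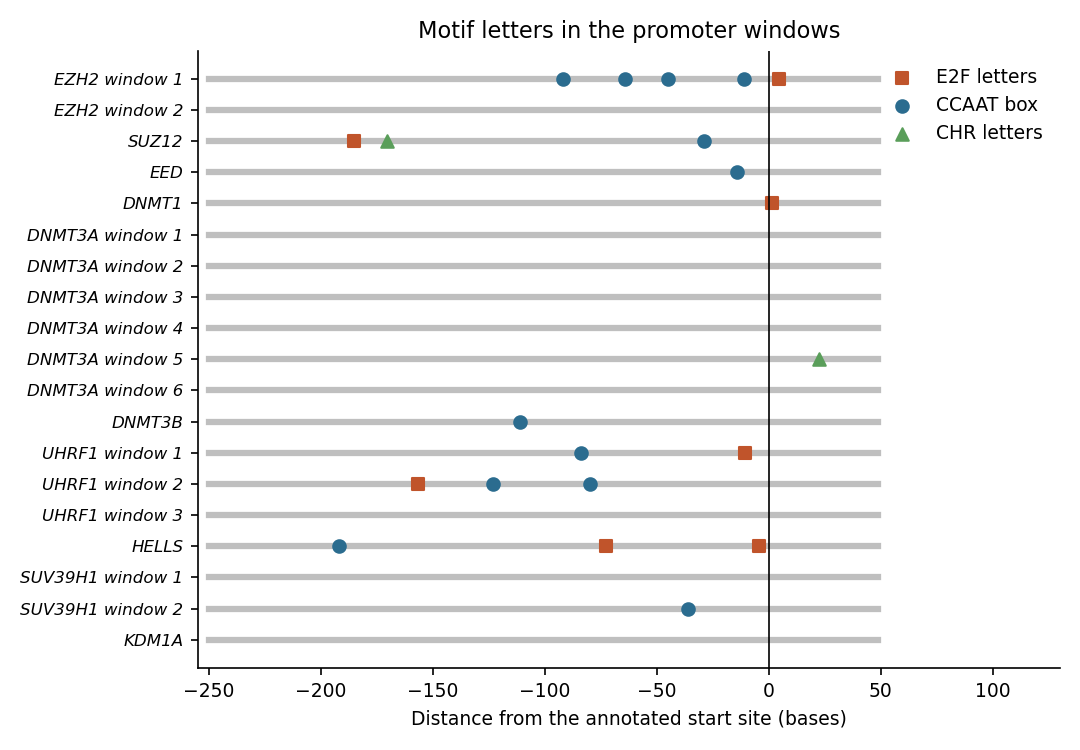
Positions of E2F letters (squares), CCAAT (circles) and CHR letters (triangles) in each RefSeq promoter window of the 10 genes, in bases from the annotated start site. EZH2, SUZ12, DNMT1, UHRF1 and HELLS have at least 1 square, and KDM1A has no symbol.

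Of the PRC2 genes among the repressors, that of the catalytic subunit was past 2-fold lower, and EED and SUZ12 did not reach 2-fold. EZH2 was at 17.0 TPM in shCON against 5.87 TPM in shEIF3F, 34.5% of its control value (log2 ratio -1.39). EED was at 5.56 and 4.55 TPM (-0.24). SUZ12 was at 2.79 and 2.67 TPM (-0.05), and both EED and SUZ12 were above 0 after the median of all tested genes was subtracted from every ratio, here called centring (0.12 and 0.31). The level of EZH2 relative to SUZ12 was thus 6.1 in shCON and 2.2 in shEIF3F, and relative to EED 3.06 and 1.29. These quotients are taken within a library and do not depend on how the libraries are scaled. SUZ12 has an expressed pseudogene copy, SUZ12P1, listed at 4.31 and 5.15 TPM, so reads of the pair may have been split between them. Their sum, an alternative chosen after the data were seen, was 7.1 and 7.82 TPM (0.12). EZH2P1, a processed pseudogene of EZH2, was listed at 0 in both libraries.

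EZH1, the paralog of EZH2 with weaker catalytic activity, was at 6.05 and 4.25 TPM (log2 ratio -0.43). EZH2 was 2.81 times as abundant as EZH1 in shCON and 1.38 times in shEIF3F. Of the 11 other PRC2 genes listed, 10 were found and tested, of which 3 were at least 2-fold lower (30%, against 25.5% of all genes) and 1 higher (10%, against 8.44%). The 3 at least 2-fold lower were the histone chaperone RBBP4 at 124 and 46.0 TPM (-1.41), the Polycomb-like protein PHF19 at 9.28 and 1.27 TPM (-2.18) and the elongin-binding subunit EPOP at 10.02 and 0.36 TPM (-3.02). EPOP passed the minimum through its level in shCON. LCOR, whose locus also encodes a PRC2 accessory protein, was the 1 gene at least 2-fold higher, at 0.68 and 3.49 TPM (1.42), and passed the minimum through its level in shEIF3F. The remaining subunits were within 2-fold. RBBP7 was at 64.65 and 36.67 TPM (-0.80), AEBP2 at 7.87 and 4.2 TPM (-0.77) and JARID2 at 3.01 and 2.25 TPM. MTF2 was at 2.53 and 2.55 TPM, and PHF1 at 24.9 and 25.7 TPM. The median of these 10 genes was -0.60. All 4 named as past 2-fold were also past it after centring, RBBP4 the closest to the limit at -1.05, and after rescaling without the 100 most abundant genes RBBP4 fell short (-0.98).

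The H3K27 demethylases were both higher in shEIF3F by less than 2-fold, KDM6A at 1.94 and 3.5 TPM (log2 ratio 0.61) and KDM6B at 14.3 and 22.1 TPM (0.60). KDM6B was past 2-fold with the trend along transcript GC content removed (1.36) and after rescaling without the 100 most abundant genes (1.01), and KDM6A was not (0.71 and 0.93). PRC1, the second Polycomb complex, ubiquitylates histone H2A and includes the CBX readers of H3K27 methylation. Of 22 PRC1 genes 5 were at least 2-fold lower (22.7%, against 25.5% of all genes) and 0 higher, and their median of -0.36 equalled that of all genes to 2 decimals. Most of the lower genes were CBX readers: CBX2 at 15.7 and 1.66 TPM (-2.65), CBX8 at 13.2 and 2.96 TPM (-1.85), CBX6 at 37.4 and 13.4 TPM (-1.42) and CBX7 at 27.5 and 9.87 TPM (-1.39). The other was PHC1, named after its value was seen, at -1.0. Removing the GC trend put CBX6 and CBX7 within 2-fold (-0.69 and -0.64).

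The genes that maintain DNA methylation through replication were each at less than 10% of control, as was SUV39H1. With a pseudocount of 0.1 in place of 1, SUV39H1 (-3.41) was lower than DNMT1 (-3.34) and HELLS (-3.13), and UHRF1 was the lowest (-4.86). UHRF1 was at 19.1 TPM in shCON against 0.56 TPM in shEIF3F, 2.93% of its control value (log2 ratio -3.69). DNMT1, the most abundant of the repressors in shCON, was at 64.1 and 6.26 TPM, 9.77% of control (-3.16). HELLS was at 5.95 and 0.59 TPM, 9.92% of control (-2.13). DNMT1 and HELLS kept nearly the same proportion, with 10.8 DNMT1 transcripts per HELLS transcript in shCON and 10.6 in shEIF3F. This holds for TPM as deposited, and their transcripts differ in GC content (55.4% for DNMT1 and 37.6% for HELLS). With the GC trend removed the log2 ratio was -2.68 for DNMT1 and -2.20 for HELLS. UHRF1 was lower than both in proportion: DNMT1 was 3.35 times as abundant as UHRF1 in shCON and 11.2 times in shEIF3F. UHRF2, the paralog of UHRF1, was at 1.95 and 1.8 TPM (-0.08), so UHRF1 exceeded UHRF2 in shCON 9.81-fold while UHRF2 exceeded UHRF1 in shEIF3F 3.21-fold. In GENCODE release 29 an exon of DNMT1 overlaps S1PR2 on the same strand, which was listed at 2.43 and 0.55 TPM.

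The de novo methyltransferases were lower by a smaller factor. DNMT3A was at 4.69 TPM in shCON against 1.39 TPM in shEIF3F, 29.6% of control (log2 ratio -1.25). DNMT3B was at 5.51 and 1.62 TPM, 29.4% of control (-1.31). The pair kept its proportion, with 0.851 DNMT3A transcripts per DNMT3B transcript in shCON and 0.858 in shEIF3F. DNMT1 was 13.7 times as abundant as DNMT3A in shCON and 4.5 times in shEIF3F. As plain TPM quotients both were more than 3-fold lower, and on the scale with a pseudocount of 1 they fell short of 2-fold after centring (-0.89 and -0.96). Their catalytically inactive relative DNMT3L was listed at 0 in both libraries.

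Of 13 partners and readers of DNA methylation, 11 were tested, of which 3 were at least 2-fold lower (27.3%, against 25.5% of all genes) and 1 higher (9.09%, against 8.44%), with a median of -0.08. CDCA7, the partner that recruits HELLS, was at 13.8 TPM in shCON against 1.23 TPM in shEIF3F (log2 ratio -2.73). CDCA7 exceeded HELLS 2.32-fold in shCON and 2.08-fold in shEIF3F. The methyl-CpG-binding domain genes MBD3, at 83.6 and 26.1 TPM (-1.64), and MBD1, at 28.6 and 10.1 TPM (-1.41), were also lower. MBD2 went the other way by just under 2-fold, at 7.42 and 15.7 TPM (0.99). USP7, a deubiquitinase that stabilises DNMT1 and UHRF1, was the higher gene, at 12.9 and 28.1 TPM (1.06). MBD3 was within 2-fold with the GC trend removed (-0.88). On the side of demethylation, the glycosylase TDG was at 20.2 and 4.6 TPM (-1.92) and TET3 at 3.4 and 3.11 TPM (-0.10), while TET1 and TET2 were below 1 TPM in both libraries.

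SUV39H1 was at 4.79 TPM in shCON against 0.36 TPM in shEIF3F, 7.52% of its control value (log2 ratio -2.09). Its paralog SUV39H2 was at 2.55 and 1.06 TPM (-0.79). SUV39H1 exceeded SUV39H2 1.88-fold in shCON and was exceeded by it 2.94-fold in shEIF3F. An antisense transcript, AC231533.1, overlaps exons of SUV39H1 and was listed at 17.0 and 10.8 TPM. As the use of strand in counting is not given in the sources used here, reads of the overlapping genes may not have been told apart.

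Of 21 other genes of H3K9 methylation, heterochromatin binding and assembly, 20 were tested, of which 6 were at least 2-fold lower (30%, against 25.5% of all genes) and 3 higher (15%, against 8.44%), with a median of -0.53. The lowest were the subunits of CAF-1, which deposits histones behind the replication fork: CHAF1A at 43.2 TPM in shCON against 2.4 TPM in shEIF3F (log2 ratio -3.70) and CHAF1B at 15.8 and 0.84 TPM (-3.19). CHAF1B passed the minimum through its level in shCON. The genes of heterochromatin protein 1, which binds methylated H3K9, were lower to unequal degrees. CBX5 was at 14.4 and 3.23 TPM (-1.87), CBX1 at 45.2 and 17.6 TPM (-1.31) and CBX3 at 58.9 and 42.4 TPM (-0.46). The other lower genes were the H4K20 methyltransferase KMT5C (-1.99) and the euchromatic H3K9 methyltransferase EHMT1 (-1.15), while its partner EHMT2 was at 60.8 and 38.4 TPM (-0.65). TRIM28, the corepressor of KRAB zinc finger proteins, was higher at 967 and 2205 TPM (1.19), as were KMT5B (1.05) and the HUSH subunit TASOR (1.03). SETDB1, the methyltransferase that TRIM28 recruits, was at 19.5 and 28.4 TPM (0.52). After centring CBX1 and EHMT1 were within 2-fold (-0.96 and -0.80). KMT5C was within 2-fold with the GC trend removed (-0.84).

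KDM1A was at 36.9 TPM in shCON against 21.7 TPM in shEIF3F, 58.7% of control (log2 ratio -0.74), and was the most abundant of the 10 repressors in shEIF3F. Its ratio was -0.38 after centring, and its paralog KDM1B was at 4.89 and 2.71 TPM (-0.67). KDM1A exceeded KDM1B 7.55-fold in shCON and 7.99-fold in shEIF3F. Of 17 partner genes, KDM1B included, 4 were at least 2-fold lower (23.5%, against 25.5% of all genes) and 0 higher, with a median of -0.82. These were the scaffold genes RCOR1 at 4.41 and 1.62 TPM (-1.05) and RCOR2 at 3.29 and 0.79 TPM (-1.26), the HMG-box subunit HMG20B at 244 and 66.5 TPM (-1.86) and GSE1 at 68.8 and 24.9 TPM (-1.43). RCOR2 passed the minimum through its level in shCON. The histone deacetylases of the complex were lower by less than 2-fold, HDAC1 at 189 and 101 TPM (-0.90) and HDAC2 at 45.1 and 25.2 TPM (-0.82). After centring HMG20B and GSE1 stayed past 2-fold, where 16.0% of all genes were at least 2-fold lower. With the GC trend removed none of the 17 was, against 13.9% of all genes. The list for NuRD, a remodelling and deacetylase complex, leaves out HDAC1, HDAC2, RBBP4, RBBP7, MBD2 and MBD3, which are counted in the lists above. Of its 8 genes 2 were at least 2-fold lower (25%, against 25.5% of all genes). These were CHD3 at 27.03 and 7.4 TPM (-1.74) and GATAD2A at 39.9 and 14.2 TPM (-1.43). Removing the GC trend put GATAD2A within 2-fold (-0.95).

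The number of repressors called depended on scaling. After centring, 5 of the 10 were at least 2-fold lower (EZH2, DNMT1, UHRF1, HELLS and SUV39H1), where 16.0% of all genes were, and 14.7% of all genes were at least 2-fold higher. The count was also 5 after the libraries were rescaled without the 100 most abundant genes (background 15.8%) and 5 with the GC trend removed (background 13.9%). EZH2 lay close to 2-fold under the first 2 of these, at -1.03 and -1.0, and at -1.22 with the GC trend removed. UHRF1 ranged from -3.69 to -3.17 over these 4 scalings and DNMT1 from -3.16 to -2.68.

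**Figure D4:**
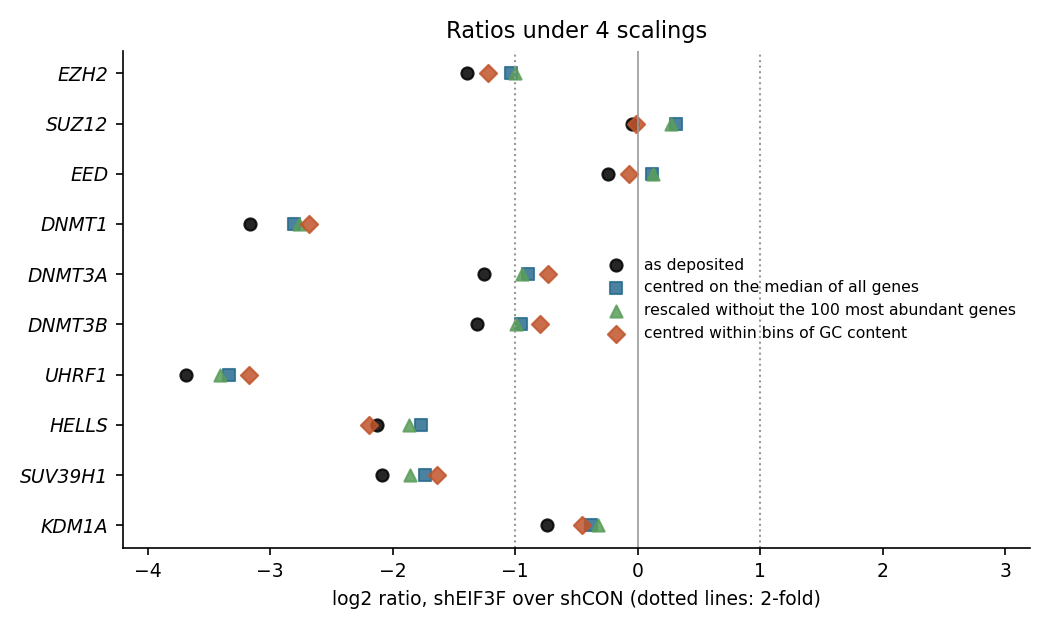
Log2 ratio of each of the 10 genes as deposited and under 3 other scalings, with dotted lines at 2-fold. DNMT1, UHRF1, HELLS and SUV39H1 lie left of -1 under all 4, as does EZH2, narrowly after centring and after rescaling. DNMT3A and DNMT3B do so only as deposited, and SUZ12 and EED cross 0 after centring and after rescaling.

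The listed markers of proliferating cells were lower in shEIF3F. All 14 listed S phase markers were at least 2-fold lower in shEIF3F, where 25.5% of all tested genes were. Their median log2 ratio was -3.22, against -0.36 for all tested genes, and their TPM summed to 1774 in shCON and 224 in shEIF3F. All 14 mitotic markers were at least 2-fold lower as well (median -4.02), with sums of 1110 and 33.6 TPM. Some markers of both lists were below 1 TPM in shEIF3F and passed the minimum through their level in shCON. PCNA, the replication clamp, was at 226 and 45.5 TPM (-2.29), a fold of 4.98 where DNMT1 had 10.2 and UHRF1 34.2. PCNA was among the less lowered S phase markers, whose log2 ratios ran from -6.11 to -1.35. Their median of -3.22 lay between the ratios of DNMT1 (-3.16) and UHRF1 (-3.69). Fewer cells in S phase and less RNA of these genes per cell cannot be told apart in bulk RNA, and the part of proliferation in the repressors' ratios was not tested. Among the E2F factors and their partners, 10 of 18 were at least 2-fold lower (55.6%, against 25.5% of all genes), MYBL2 (-4.74), E2F1 (-4.01) and FOXM1 (-3.99) the most, and E2F5 was higher (1.88). The count was 7 after centring (against 16.0% of all genes), 7 after rescaling (15.8%) and 9 with the GC trend removed (13.9%). It was 5 with a pseudocount of 5, where 1897 of the 13308 tested genes were at least 2-fold lower. Some of these factors were below 1 TPM in shEIF3F and passed the minimum through their level in shCON.

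**Figure D5:**
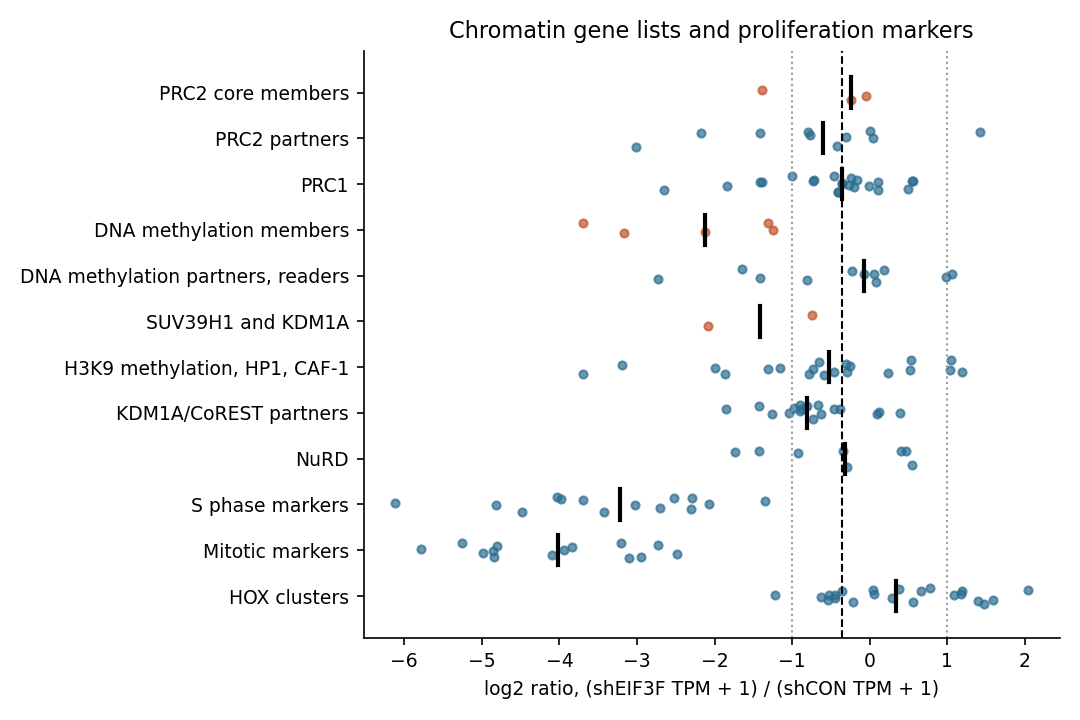
Log2 ratio of each tested gene in 12 lists, with 1 point per gene, a black bar at each list's median, dotted lines at 2-fold and a dashed line at the median of all genes. The S phase and mitotic markers lie left of -1, and the DNA methylation members have a median of -2.13 whereas their partners and readers have one of -0.08.

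The genes most like 2 of the repressors in level and ratio were found by Euclidean distance in log2(TPM + 1) over the 2 libraries, among genes averaging at least 5 TPM. Nearest to DNMT1 were the lamin gene LMNB1 at 65.8 and 6.59 TPM, the replicative helicase subunit MCM3 at 64.9 and 7.11 TPM and the hexokinase HK1 at 58.5 and 7.06 TPM. Nearest to EZH2 were AMDHD2, HDAC6 and MTSS1L, with log2 ratios of -1.43, -1.34 and -1.32. With 2 libraries, such likeness says only that the pair of values is close.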

How the data were processed

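Per the file headers and labels, the deposited table gives TPM per gene symbol for 1 shCON and 1 shEIF3F library of 22Rv1 cells, computed by the authors and rounded to 2 decimals. Libraries came from total RNA with an Illumina TruSeq kit, per the labels' protocols, and the tools CASAVA and HISAT2 and build hg19 were used per the submitters' processing notes. Which counter, annotation and strand setting were used is not given in the sources used here. Depth is unknown, so no interval or detection limit is given.

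Entries sharing a symbol were summed. The 27 entries turned into dates by a spreadsheet and 5553 small RNA symbols were left out. Log2 ratios used a pseudocount of 1 and a minimum mean of 1 TPM. Transcript GC content and length came from GENCODE release 29 (99.1% of tested genes) and promoter windows from RefSeq, GRCh38.p14. The 10 genes, the 25 gene lists and the thresholds were chosen with earlier results of these data known. Named outside the 10 were genes of the PRC2, DNA methylation, H3K9, CoREST and S-adenosylmethionine lists, up to 4 genes with the largest ratios per other list, any gene past 2-fold against its list's median, and the genes nearest to EZH2 and DNMT1, except some genes not reported here. Alternatives covered pseudocounts, TPM minimum, scaling, GC and length trends, repeated symbols and small RNAs. The steps ran in Python 3.11.15 with NumPy 2.4.6, pandas 2.3.3 and matplotlib 3.10.9 and were tested on simulated data.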

Additional observations from a re-analysis of the deposited data

How the results depend on the processing

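Each group has 1 library, so no replicate could be left out. No paired analysis was possible because the result comes from no test. Of 96 values of single repressors under an alternative, 84 stayed on the same side of 2-fold and 12 no longer reached it, 5 each of DNMT3A and DNMT3B. With a pseudocount of 5, 3 of the 10 genes were at least 2-fold lower (EZH2, DNMT1 and UHRF1), their median was -0.77, and HELLS (-0.97) and SUV39H1 (-0.87) fell short. With a minimum mean of 5 TPM, 5 of the 10 genes were left, of which those same 3 were at least 2-fold lower. The median of the 10 was -0.99 after centring and -1.0 after rescaling without the 100 most abundant genes. Over all tested genes, 3399 were at least 2-fold lower and 1123 higher as deposited. These counts were 1897 and 474 with a pseudocount of 5, 2130 and 1957 after centring, 2108 and 2016 after rescaling, 1840 and 1755 with the GC trend removed, and 2153 and 1921 with the length trend removed. With a minimum mean of 5 TPM 2373 were lower and 615 higher. The cause was not tested where the alternative's construction does not show it.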

Other observations

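Genes on which these repressors are known to act in other settings did not share 1 direction. Of 39 HOX genes, classic Polycomb targets, 22 averaged at least 1 TPM. Of these 7 were at least 2-fold higher in shEIF3F (31.8%, against 8.44% of all tested genes) and 1 lower, with a median log2 ratio of 0.33. After centring on the median of all genes 9 were higher (40.9%, against 14.7%) and 0 lower. The count higher was 1 with a pseudocount of 5 and 2 with a minimum mean of 5 TPM, where 474 and 615 of all genes were. HOXA5 was at 0.55 TPM in shCON against 3.65 TPM in shEIF3F (1.58), HOXC13 at 6.72 and 20.4 TPM (1.47) and HOXA3 at 1.0 and 4.28 TPM (1.40). HOXA5 passed the minimum through its level in shEIF3F. HOXB13, a prostate lineage factor, was the lower gene, at 105 and 44.4 TPM (-1.23). Of 13 genes known as repressed by EZH2, 6 were tested and 4 of them were at least 2-fold lower (66.7%, against 25.5% of all tested genes): MYT1 at 3.5 and 0.1 TPM (-2.03), the RAS regulator DAB2IP at 7.66 and 1.87 TPM (-1.59), CDKN2A at 127 and 49.6 TPM (-1.34) and CDKN1C at 11.7 and 4.46 TPM (-1.21). MYT1 passed the minimum through its level in shCON. CDH1, the gene of epithelial cadherin, went the other way at 69.0 and 121 TPM (0.80). After centring 2 of the 6 were lower (MYT1 and DAB2IP), against 16.0% of all tested genes, and 1 higher (CDH1, 1.16), against 14.7%. With the GC trend removed 1 was lower (MYT1), against 13.9%. Then 1 was higher (CDH1), as were 1755 of the 13193 tested genes with a GC content.

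Of 12 genes known to be methylated in prostate cancer, 3 were tested: RASSF1 at 22.0 TPM in shCON against 5.27 TPM in shEIF3F (log2 ratio -1.87), MGMT (-0.64) and TIMP2 (-0.47). GSTP1, named after its values were seen as the best known of them, was listed at 0.51 and 0.91 TPM, below the minimum. Of 21 germline genes whose promoters are methylated in most adult tissues, 10 were tested, all of the MAGE, CTAG and SSX families, and the 21 summed to 1732 TPM in shCON and 869 TPM in shEIF3F. At least 2-fold lower (4 of 10, 40%, against 25.5% of all tested genes) were the cancer-testis genes CTAG2 at 703 and 168 TPM (-2.06), SSX2 at 87.0 and 29.9 TPM (-1.51), CTAG1B at 377 and 146 TPM (-1.37) and MAGEA1 at 84.1 and 33.9 TPM (-1.29). MAGEA4 was at 250 and 318 TPM (0.35), MAGEC2 at 36.7 and 54.4 TPM (0.56) and MAGEC1 at 1.26 and 2.63 TPM (0.68), which was past 2-fold after centring (1.04). MAGEA1 was within 2-fold after centring (-0.93) and CTAG1B with the GC trend removed (-0.22). These genes have near-identical copies, so reads may be split between them and single values are uncertain. Of 8 tested H3K9 demethylases 2 were at least 2-fold lower (25%, against 25.5% of all tested genes), KDM4A at 18.2 and 2.06 TPM (-2.65) the most. After centring the count was 1 of 8, where 16.0% of all tested genes were at least 2-fold lower. Of 16 remodellers related to HELLS, 3 were at least 2-fold lower (18.8%, against 25.5% of all tested genes) and 0 higher, with a median of -0.05: RAD54L at 11.1 and 0.78 TPM (-2.77), SRCAP at 15.1 and 1.52 TPM (-2.68) and EP400 at 15.5 and 6.94 TPM (-1.05). RAD54L passed the minimum through its level in shCON. SMARCA1 had the highest ratio of the 16, at 10.1 and 19.6 TPM (0.89), and was past 2-fold after centring (1.25), when EP400 was within it (-0.70). In the cycle of S-adenosylmethionine, the methyl donor of the methyltransferases, MAT2A was at 80.6 and 31.6 TPM (-1.32, and -0.97 after centring) and AHCY at 200.4 and 221 TPM (0.14).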
